A study of Arabidopsis thaliana with 4 samples.

Results

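The transcripts described here are 10 genes of the low-oxygen response of Arabidopsis thaliana, taken from the 33602 gene identifiers of an RNA sequencing table by their locus codes. They are the 5 transcription factors of group VII of the ethylene response factor (ERF) family, HRE1 (AT1G72360, also ERF73), ERF71 (AT2G47520, also HRE2), RAP2.2 (AT3G14230), RAP2.3 (AT3G16770, also ERF72) and RAP2.12 (AT1G53910). With them are 5 genes that low oxygen induces, ADH1 (AT1G77120), PDC1 (AT4G33070), SUS4 (AT3G43190), PCO1 (AT5G15120) and PCO2 (AT5G39890). The set was chosen by the measured values of ERF71 and ADH1 in these libraries, so the values below are a description. RNA was taken from root tips of 3 mm, cut from wild-type Col-0 seedlings that were 5 days old and had been moved to plates with 0.5 µM narciclasine or to plates without it. Roots were collected after 2 h or 12 h, which gave 4 groups of 1 library each: control 2 h, narciclasine 2 h, control 12 h and narciclasine 12 h. Every library pooled many root tips, all groups shared the same genotype and medium, and each time had its own control. Narciclasine, made by Amaryllidaceae plants, is an alkaloid that blocks translation by binding to ribosomes.

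Group VII ERFs begin with methionine followed by cysteine. After the methionine is removed, plant cysteine oxidases (PCOs) oxidise the exposed cysteine when oxygen and nitric oxide are present, arginyl transferases ATE1 and ATE2 add an arginine, and the ligase PRT6 marks the protein for degradation. When oxygen is scarce the factors persist and activate genes for ethanol fermentation and sucrose breakdown, together with PCO1 and PCO2, which feed back on the factors. RAP2.2, RAP2.3 and RAP2.12 transcripts are made constitutively in Arabidopsis, whereas HRE1 and ERF71 are themselves induced by low oxygen. Transcript levels do not measure the stability of the proteins.

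The coding starts of the 5 factors are shown because they hold the feature that defines the group. They are the first 36 coding bases in the RefSeq TAIR10.1 annotation, 5′ to 3′, with the second codon in capitals.
HRE1: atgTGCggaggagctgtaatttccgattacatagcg
ERF71: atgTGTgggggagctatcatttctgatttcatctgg
RAP2.2: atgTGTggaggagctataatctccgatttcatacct
RAP2.3: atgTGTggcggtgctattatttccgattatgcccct
RAP2.12: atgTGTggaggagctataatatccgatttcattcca
All 5 have a cysteine codon second, in each of the annotated isoforms of RAP2.2 (3 of 3) and RAP2.12 (3 of 3) and in 2 of 3 of HRE1. The remaining HRE1 isoform starts elsewhere, with a serine codon second.
HRE1, remaining isoform: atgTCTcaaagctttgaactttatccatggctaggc
A cysteine codon stood second in 237 of 27562 coding genes (0.86%), counting 1 annotated isoform per gene. The deposited values are per gene and do not separate the HRE1 isoforms.

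The upstream sequences of ERF71 and ADH1, the genes whose levels led to the choice of the set, run from 250 bases before the annotated start of the gene to 50 bases from it, in TAIR10.1. Capitals mark matches to the motifs given below.
ERF71, chr2:19503653-19503952, minus strand: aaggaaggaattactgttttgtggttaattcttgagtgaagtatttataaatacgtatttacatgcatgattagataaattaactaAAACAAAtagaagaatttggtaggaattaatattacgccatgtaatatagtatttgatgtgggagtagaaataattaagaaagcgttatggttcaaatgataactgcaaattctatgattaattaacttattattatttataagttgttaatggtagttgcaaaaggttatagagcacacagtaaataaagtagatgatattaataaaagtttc
ADH1, chr1:28975005-28975304, plus strand: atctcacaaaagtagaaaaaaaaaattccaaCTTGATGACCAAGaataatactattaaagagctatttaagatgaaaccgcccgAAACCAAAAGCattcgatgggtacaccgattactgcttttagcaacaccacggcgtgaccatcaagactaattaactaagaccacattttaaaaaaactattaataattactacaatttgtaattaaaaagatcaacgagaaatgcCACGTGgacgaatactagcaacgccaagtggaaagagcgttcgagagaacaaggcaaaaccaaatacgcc
Motifs were searched on both strands of the same window in 27443 promoters. A form of the core of the element that RAP2.2 and RAP2.12 bind was searched with any 3 bases between AAACCA and GC. It was present in 1.04% of promoters, and among the 10 genes in those of ADH1 and PCO1. The 3 bases were AAA in ADH1 and GGG in PCO1, where the match lay past the annotated start. As any 3 bases were allowed, a match need not be the element itself. The anaerobic motif AAACAAA was present in 38.2% of promoters and in 5 of the 10 (ERF71, RAP2.12, SUS4, PCO1 and PCO2). The RAP2.12 match lay past the annotated start, and the SUS4 matches lay across or past it. The GCC box GCCGCC, a known ERF binding motif, was present in 2.57% and in none of the 10. The G box CACGTG was present in 7.68% and only in ADH1 among the 10. A motif of mitochondrial retrograde response genes, CTTG and CAAG with any 5 bases between them, was present in 0.904% and again only in ADH1 among the 10. The 3 motifs matched in ADH1 do not overlap one another there. A match describes letters in this window, not a bound site.

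In these libraries, ERF71 stood far above both controls at both narciclasine times. In narciclasine 2 h, HRE1 was higher and RAP2.3 lower than in either control. ADH1 was higher than its control at 12 h and lower at 2 h, where the difference was near 2-fold and its direction turned with the control used. PDC1 was higher at 12 h, and RAP2.2 and RAP2.12 stayed near their control levels. Levels are given as RPKM, in which reads are divided by gene length and by library size, from libraries of 11880278 to 14724075 reads. Reads were recovered from the RPKM values as whole numbers, and ratios are of those reads after scaling by the trimmed mean of M values (TMM). A range after a ratio is its 95% counting interval. With 1 library per group there was no test between conditions, and the interval covers counting error only. A gene was called higher or lower where the ratio reached 2-fold and the interval excluded 1. Of the 10 genes 9 had at least 1 CPM (reads scaled to library size) in at least 1 library, and PCO2 did not. In bulk root tips, fewer cells of a type and less RNA per cell cannot be told apart.

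At 2 h, 2 of the 9 genes were called higher and 2 lower in narciclasine, where 4.76% and 2.14% of all 19462 genes compared were called in those directions. At 12 h, 3 were called higher and 0 lower, against 11.4% and 16.8% of all genes. Because the genes were chosen for such values, these counts are read as a description. The median log2 ratio of the 9 was 0.22 at 2 h, where that of all genes was -0.00, and 0.49 at 12 h, where that of all genes was -0.05.

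**Figure D1:**
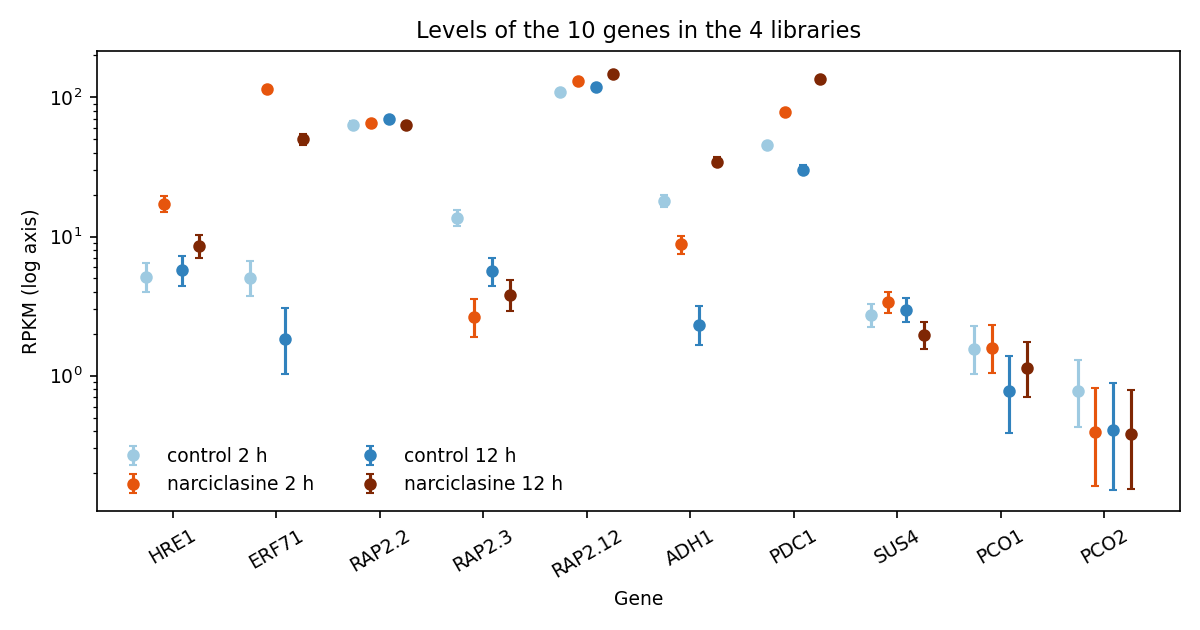
RPKM (log axis) of the 10 genes in the 4 libraries, 1 point per library with its 95% counting interval as a bar. ERF71 reaches 114 RPKM in narciclasine 2 h from 5.03 in its control, while RAP2.2 lies between 62.8 and 70.1 in all 4 libraries.

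ERF71, a factor that activates fermentation genes under low oxygen, was at 5.03 RPKM (50 reads) in control 2 h, 114 RPKM (1109 reads) in narciclasine 2 h, 1.85 RPKM (15 reads) in control 12 h and 49.9 RPKM (503 reads) in narciclasine 12 h. Both narciclasine libraries lay above both controls. The ratio to the control of the same time was 22.1 (16.6 to 29.9) at 2 h and 25.9 (15.6 to 46.7) at 12 h. It ranked 26 from the highest of 19462 ratios at 2 h and 56 at 12 h. The level itself was 2.24-fold (2.02 to 2.50) lower in narciclasine 12 h than in narciclasine 2 h, and control 12 h was 2.63-fold (1.46 to 5.05) lower than control 2 h. The 12 h ratio divided by the 2 h ratio was 1.17 (0.653 to 2.11), an interval that includes 1. The control 12 h level behind the second ratio rested on 15 reads.

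HRE1, the other factor of the group that is itself induced by low oxygen, was at 5.09 RPKM (71 reads), 17.2 RPKM (235 reads), 5.71 RPKM (65 reads) and 8.50 RPKM (120 reads) in control 2 h, narciclasine 2 h, control 12 h and narciclasine 12 h. Narciclasine 2 h was the highest library and narciclasine 12 h lay between it and the controls. The ratio was 3.29 (2.52 to 4.36) at 2 h and 1.43 (1.05 to 1.96) at 12 h, so it was called at 2 h and not at 12 h. The 2 h ratio was 2.31 times the 12 h ratio (1.54 to 3.45). HRE1 overlaps AT1G72370, a gene for 40S ribosomal protein SA on the opposite strand, over 124 of its 1273 exon bases. That gene was at 581, 477, 411 and 503 RPKM in the same order, lowest in control 12 h, and whether counting used strand is not given in the sources used here. Its part in the HRE1 values was not tested.

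RAP2.3 ran the other way among the factors. It was at 13.7 RPKM (224 reads), 2.62 RPKM (42 reads), 5.62 RPKM (75 reads) and 3.81 RPKM (63 reads) in the same order of libraries. Control 2 h was the highest and narciclasine 2 h the lowest. Narciclasine was 5.36-fold (3.84 to 7.64) lower at 2 h and 1.54-fold (1.09 to 2.19) lower at 12 h, which is called only at 2 h. Control 12 h was itself 2.36-fold (1.81 to 3.11) lower than control 2 h.

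RAP2.12 and RAP2.2, the main constitutive activators of the core low-oxygen genes, were the most abundant of the 5 factors in RPKM in all libraries except narciclasine 2 h, where ERF71 passed RAP2.2. RAP2.12 was at 109, 131, 119 and 148 RPKM (2450, 2876, 2182 and 3366 reads). It was higher than its control in both narciclasine libraries, with ratios of 1.17 (1.11 to 1.23) at 2 h and 1.19 (1.13 to 1.26) at 12 h, under the 2-fold threshold. RAP2.2 was at 63.8, 65.8, 70.1 and 62.8 RPKM (1519, 1534, 1363 and 1513 reads), with ratios of 1.01 (0.936 to 1.08) and 0.859 (0.797 to 0.924). Summed over the 5 factors, the group was at 197, 330, 202 and 273 RPKM in the same order. ERF71 was 2.56% of that sum in control 2 h, 34.5% in narciclasine 2 h, 0.914% in control 12 h and 18.3% in narciclasine 12 h, while RAP2.12 went from 55.4% to 39.6% at 2 h and from 58.8% to 54.2% at 12 h. RAP2.3 was 6.97% in control 2 h and 0.795% in narciclasine 2 h.

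ADH1, the alcohol dehydrogenase that completes ethanol fermentation, was at 18.0 RPKM (381 reads) in control 2 h, 8.78 RPKM (182 reads) in narciclasine 2 h, 2.31 RPKM (40 reads) in control 12 h and 34.4 RPKM (737 reads) in narciclasine 12 h. Control 12 h was the lowest library and narciclasine 12 h the highest, with control 2 h above narciclasine 2 h. Narciclasine was 2.10-fold (1.76 to 2.52) lower than control at 2 h and 14.3-fold (10.4 to 20.1) higher at 12 h. The 2 h call lies near the threshold and was lost with log2(RPKM + 1), where the difference was -0.96, and when the whole interval had to lie beyond 2-fold. Control 12 h was 7.53-fold (5.43 to 10.7) lower than control 2 h, so the 12 h ratio is taken against a much lower control. Against control 2 h, narciclasine 12 h was 1.89-fold (1.67 to 2.15) higher, which is under the threshold, and narciclasine 2 h was 3.58-fold (2.53 to 5.18) higher than control 12 h. Between the narciclasine libraries ADH1 was 3.98-fold (3.38 to 4.71) higher at 12 h. The 12 h ratio divided by the 2 h ratio was 30.0 (20.8 to 43.1). ADH1 overlaps AT1G77122 on the opposite strand over 61 of its 1595 exon bases, and that gene was at 1.92, 2.53, 1.52 and 4.10 RPKM.

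PDC1, which makes acetaldehyde from pyruvate in the step before ADH1, was at 45.2 RPKM (1413 reads), 79.1 RPKM (2422 reads), 30.2 RPKM (770 reads) and 136 RPKM (4310 reads). Both narciclasine libraries lay above both controls. The ratio was 1.71 (1.60 to 1.82) at 2 h, not called, and 4.33 (4.01 to 4.68) at 12 h. Against control 2 h, narciclasine 12 h was 2.98-fold (2.81 to 3.17) higher. SUS4, a sucrose synthase induced by low oxygen, was at 2.71, 3.38, 2.98 and 1.97 RPKM (109, 133, 98 and 80 reads), with the lowest value in narciclasine 12 h. Its ratios were 1.21 (0.936 to 1.58) at 2 h and 0.631 at 12 h, where it was 1.58-fold (1.17 to 2.16) lower, and neither was called.

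PCO1 and PCO2, the low-oxygen-induced cysteine oxidases, had few reads. PCO1 was at 1.56, 1.59, 0.779 and 1.14 RPKM (27, 27, 11 and 20 reads), with ratios of 0.995 (0.562 to 1.76) at 2 h and 1.41 (0.642 to 3.25) at 12 h. PCO2 was at 0.778, 0.397, 0.408 and 0.384 RPKM (14, 7, 6 and 7 reads). A change of either could not be told from counting error at this depth. The other cysteine oxidases, PCO3, PCO4 and PCO5, held most of the family's RPKM, which summed to between 25.3 in narciclasine 12 h and 33.0 in control 2 h. PCO1 was 4.74%, 5.53%, 2.51% and 4.51% of that sum, and PCO5 39.3%, 34.7%, 38.4% and 47.4%. In reads, PCO3 had 223, 159, 153 and 114, PCO4 had 175, 206, 173 and 150, and PCO5 had 258, 195, 194 and 242, none of them called in either comparison with its own control.

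**Figure D2:**
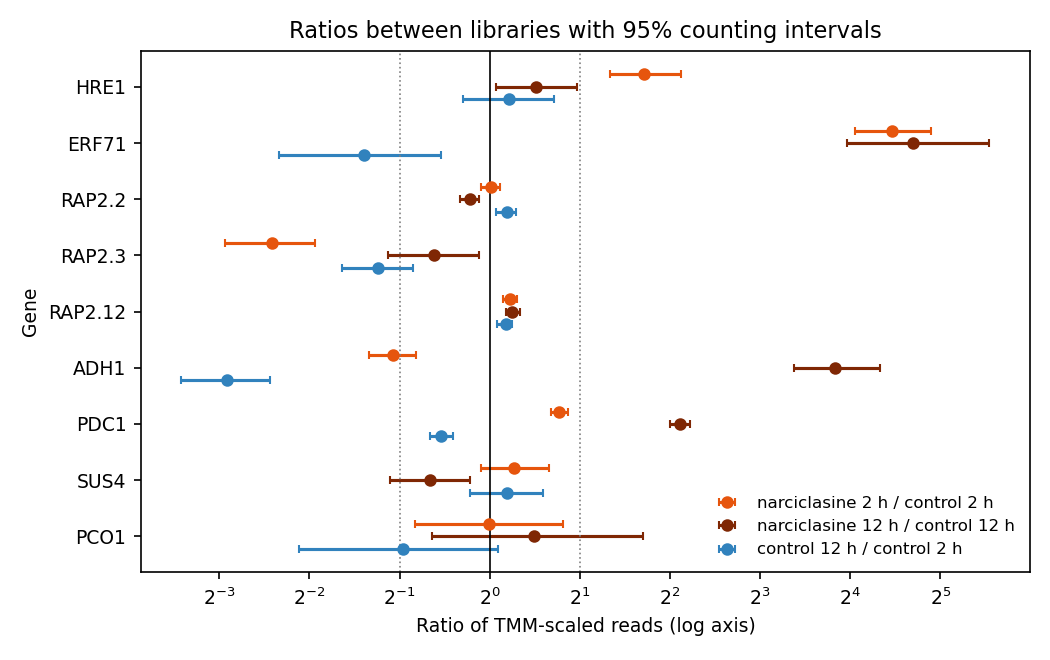
Ratios of TMM-scaled reads (log axis) for the 9 genes past the filter, for narciclasine against control at 2 h and at 12 h and for control 12 h against control 2 h, with 95% counting intervals. Dotted lines mark 2-fold in each direction, and ADH1 lies left of 1 at 2 h and right of 1 at 12 h.

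The controls themselves differed between 2 h and 12 h. Of the 9 genes 0 were called higher and 3 lower in control 12 h (ERF71, RAP2.3 and ADH1), where 4.39% and 1.68% of all genes were called. PDC1 was lower in control 12 h by less than the threshold (interval 1.33 to 1.59), while RAP2.2 and RAP2.12 were 1.14-fold and 1.13-fold higher. Between the narciclasine libraries, ADH1 was called higher at 12 h and ERF71 lower, where 7.98% and 16.0% of all genes were called. HRE1 was 1.99-fold (1.59 to 2.50) lower at 12 h, just under the threshold, and was called lower (log2 ratio -1.02) when scaled by total reads or by upper quartile. In the same comparison PDC1 was 1.75-fold (1.66 to 1.84) higher.

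Comparison with the control of the other time shows which values depend on the control. These comparisons reuse the same libraries and are not independent of those above. In narciclasine 2 h against control 12 h, 4 genes were called higher (HRE1, ERF71, ADH1 and PDC1) and 1 lower (RAP2.3), where 6.35% and 5.99% of all genes were called. In narciclasine 12 h against control 2 h, 2 were called higher (ERF71 and PDC1) and 1 lower (RAP2.3), where 12.4% and 16.9% were called. ERF71 alone of the 9 was called higher at both times against both controls, as were 272 (1.4%) of all genes. PDC1 was called higher at 12 h against both controls, HRE1 higher at 2 h against both, and RAP2.3 lower at 2 h against both. The direction of ADH1 at 2 h turned with the control.

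The families of PDC1 and SUS4 shifted in composition. Reads of near-identical paralogs can be split between them in ways that the sources used here do not describe, so these shares are uncertain. The 4 pyruvate decarboxylases summed to 81.7, 123, 76.9 and 242 RPKM. PDC2 had 596, 810, 767 and 3180 reads and was 3.21-fold (2.96 to 3.47) higher in narciclasine at 12 h, and the remaining gene, AT5G01320, had 3, 4, 2 and 5. PDC3 had 497, 468, 378 and 37 reads and was 13.2-fold (9.41 to 19.1) lower at 12 h, so that its share of the sum was 20.2% in control 12 h and 0.506% in narciclasine 12 h. PDC1 was 39.2% and 56.4% of the sum in those libraries.

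The sucrose synthases summed to 42.0, 33.7, 33.3 and 60.1 RPKM. SUS3 had 812, 569, 500 and 1594 reads and was 2.47-fold (2.23 to 2.73) higher in narciclasine at 12 h, and SUS6 had 158, 164, 103 and 270 and was 2.03-fold (1.61 to 2.57) higher. Neither was called against control 2 h, where the ratios were 1.92 (1.76 to 2.09) for SUS3 and 1.67 (1.37 to 2.05) for SUS6. SUS4 was 8.96% of the family in control 12 h and 3.27% in narciclasine 12 h, and SUS3 43.3% and 61.8%. SUS1 had 525, 398, 319 and 532 reads and SUS5 120, 98, 98 and 78, neither called against its own control. SUS2 had 24, 11, 11 and 6 reads and was 2.19-fold (1.03 to 4.96) lower in narciclasine at 2 h, which was not called against control 12 h.

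**Figure D3:**
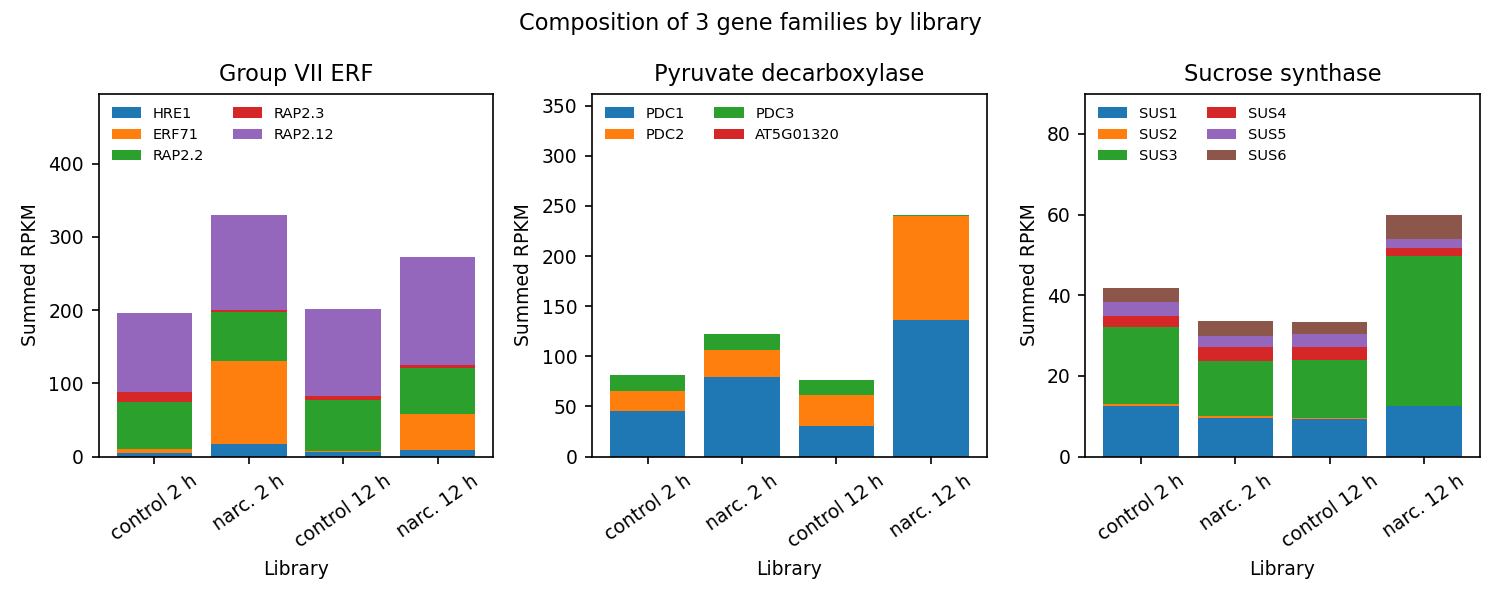
Summed RPKM of the group VII ERFs, the pyruvate decarboxylases and the sucrose synthases in the 4 libraries, stacked by gene. ERF71 makes up 34.5% of the ERF sum in narciclasine 2 h, and PDC3 0.506% of the decarboxylase sum in narciclasine 12 h.

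Fermentation and sucrose-entry genes outside the set were compared as a list of 16, of which 15 passed the filter. At 2 h 2 were called higher and 1 lower, beside 4.76% and 2.14% of all genes, and at 12 h 4 higher and 2 lower, beside 11.4% and 16.8%. Their median log2 ratios were -0.06 and 0.27. ALAAT2, an alanine aminotransferase, had 148, 608, 119 and 1132 reads and was higher at both times, 4.09-fold (3.41 to 4.93) and 7.36-fold (6.09 to 8.96). AT4G17260, annotated as a lactate/malate dehydrogenase family protein, had 270, 1711, 277 and 625 reads and was 6.31-fold (5.55 to 7.20) higher at 2 h. The other genes called higher were PDC2, SUS3 and SUS6, given above. ALDH2B7, an aldehyde dehydrogenase, had 2655, 1614, 689 and 300 reads, was 2.97-fold (2.59 to 3.41) lower at 12 h, and was already lower in control 12 h than in control 2 h.

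Of 40 other genes of the low-oxygen response, 33 passed the filter. At 2 h 7 were called higher and 2 lower, beside 4.76% and 2.14% of all genes. At 12 h 8 were called higher and 6 lower, beside 11.4% and 16.8%, so the number lower was near the share of all genes. In control 12 h against control 2 h 7 were higher and 0 lower, beside 4.39% and 1.68%. Their median log2 ratio was 0.18 at 2 h and -0.01 at 12 h. EXL1, a phosphate-responsive 1 family gene, had 34, 182, 43 and 348 reads and was 5.33-fold (3.68 to 7.93) and 6.26-fold (4.55 to 8.81) higher at 2 h and 12 h. AT4G24110 had 112, 399, 154 and 1102 reads and was 3.55-fold (2.87 to 4.41) and 5.53-fold (4.67 to 6.59) higher. Together with AT5G66985 (171, 353, 96 and 519 reads), these were the 3 of the 33 called higher at both times against both controls. HB1, the class 1 hemoglobin that scavenges nitric oxide, had 143, 265, 106 and 943 reads and was 6.88-fold (5.62 to 8.49) higher at 12 h.

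Other genes called higher at 2 h were AT4G17670 with 118, 473, 65 and 207 reads, 3.99-fold (3.25 to 4.92), and CML38, a calmodulin-like protein of stress granules, with 179, 463, 304 and 390 reads, 2.57-fold (2.16 to 3.08). CML38 was also 2.15-fold higher in control 12 h than in control 2 h, and narciclasine 2 h was not called against control 12 h. On the lower side, AT5G04120, a phosphoglycerate mutase family gene, had 2105, 1654, 1312 and 32 reads and was 53.0-fold (37.4 to 77.8) lower at 12 h. AT1G19530 had 42, 9, 35 and 7 reads and was 4.69-fold (2.25 to 11.0) lower at 2 h and 6.46-fold (2.83 to 17.2) lower at 12 h. ETR2, an ethylene receptor, was 3.12-fold (2.45 to 4.01) lower and AT2G15880 3.19-fold (2.36 to 4.36) lower at 12 h. AT2G15880 was called higher in control 12 h than in control 2 h (interval 1.75 to 3.04) and was not called against control 2 h, whereas ETR2 was called lower against both controls. AT3G10020 with 394, 183, 460 and 331 reads was 2.16-fold lower at 2 h. HRA1, a repressor of RAP2.12 that was named after its values were seen, had 35, 20, 33 and 25 reads and was not called at either time.

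The list of N-degron pathway genes, 12 listed and 11 past the filter, held 0 calls in either direction at 2 h. Of all genes, 4.76% were called higher and 2.14% lower there. The list includes VRN2 and ZPR2, which are not among the enzymes that act on the factors. At 12 h, where 11.4% and 16.8% were called, 2 were called higher and 0 lower, the methionine aminopeptidases MAP2B, 2.14-fold (2.00 to 2.29), and MAP1A, 2.04-fold (1.83 to 2.27), neither of which was called against control 2 h. PRT6 had 1220, 1510, 1168 and 2310 reads and ATE1 614, 744, 577 and 747, neither called. Of 5 genes for known partners of group VII ERFs (ACBP1, ACBP2, AT2G41980, SINAT2 and MED25), 0 were called at either time, a list too short to set against the same shares of all genes.

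**Figure D4:**
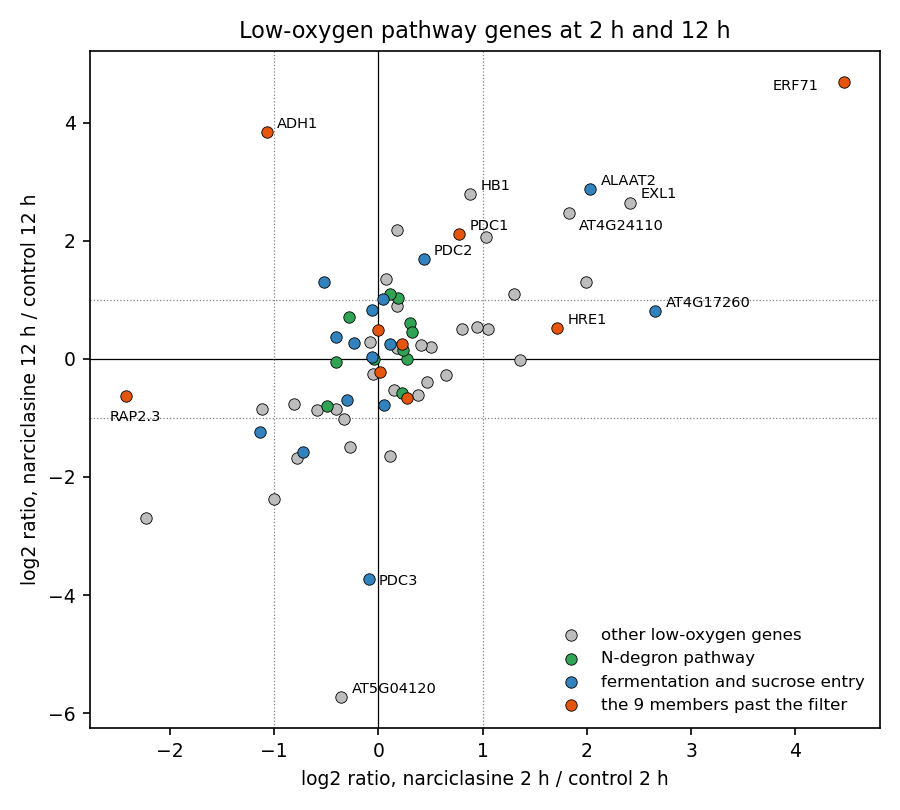
Log2 ratios of narciclasine against its own control at 2 h (horizontal) and 12 h (vertical), 1 point per gene of the set and of 3 gene lists, with dotted lines at 2-fold. ERF71 lies at 4.46 and 4.70, ADH1 at -1.07 and 3.83, and PDC3 and AT5G04120 lie far below the 12 h axis zero.

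The coding genes nearest in pattern to ERF71 were ranked by the Euclidean distance of log2 CPM, centred on the gene's mean over the 4 libraries, among 14979 genes. The nearest was AT5G43450, a 2-oxoglutarate and Fe(II)-dependent oxygenase family gene, at a distance of 0.48, with 5.13, 145, 2.28 and 42.1 RPKM. Next came AT2G18193 at 0.94 and AT2G41730 at 0.98, the latter with 29.4, 1190, 22.7 and 716 RPKM, followed by AT1G05700 and AT3G54520. The genes nearest to ADH1 lay at distances of 0.85 to 1.29. They were AT5G01380 with 5.54, 5.71, 1.26 and 13.1 RPKM, EXPA10, an expansin, with 158, 110, 32 and 254 reads, LTP5, a lipid transfer protein, with 24.6, 13.9, 7.28 and 50.6 RPKM, then AT1G21520 and AT1G16850. All 5 had their lowest value in control 12 h and their highest in narciclasine 12 h, as ADH1 did, a likeness they were picked for. Their narciclasine ratios at 2 h were 1.01, 0.693, 0.551, 1.31 and 0.71 in the order named, where that of ADH1 was 0.476.

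Markers of cell types differed between these libraries. The 5 root tip meristem markers were above 0 in all 4 libraries. Their sum was 79.6, 88.5, 44.6 and 46.1 RPKM, lower at 12 h in control and narciclasine alike. Single markers differed from the sum. WOX5 was at 19.8, 7.86, 1.91 and 1.45 RPKM (216, 84, 17 and 16 reads), lower in narciclasine than in its control at 2 h. At 12 h WOX5 was not called, and its difference could not be told from counting error at these reads. PLT2 was at 5.8, 11.8, 2.72 and 5.79 RPKM, higher in narciclasine than in its control at both times. The 3 root hair markers summed to 199, 244, 198 and 87.1 RPKM, lowest in narciclasine 12 h. EXPA7 and COBL9 carried that sum, whereas RHD6 was at 27.0, 27.9, 14.8 and 16.6 RPKM, lowest in control 12 h, with a 12 h ratio of 1.08 (0.91 to 1.27). The 4 shoot markers summed to 17.7, 11.7, 46.9 and 9.0 RPKM, highest in control 12 h. Among them LHCB1.1 did not pass the filter, with 1, 8, 5 and 0 reads. Control 12 h, the library where ADH1 and ERF71 were lowest, is also the one where the shoot markers summed highest. Their part in the values above was not tested.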

How the data were processed

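RNA-seq libraries were made from total RNA of root tips by the standard Illumina protocol, 1 per group, per the labels' protocols. Per the file headers, the authors deposited RPKM values. Per the submitters' processing notes, the authors' tools included Bowtie 0.12.2 and edgeR, and the build named is mm8, a mouse genome. As the table holds locus codes of Arabidopsis, the genome behind it is unclear. How reads were assigned to genes, and whether by strand, is not given in the sources used here. Names and sequences were looked up by locus code in RefSeq TAIR10.1, where 32835 of 33602 identifiers matched.

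Library sizes and whole reads were recovered from the RPKM values, within a tolerance of 0.002, for all 24396 genes above 0, and 9206 were listed at 0. The smallest multiple of a gene's reads whose implied length reached 95% of its shortest annotated coding length was taken, so reads of some genes may be off by a whole factor. Tested on simulated data, the recovery returned the exact reads for 99.4% of 23762 genes. The simulation used the recovered lengths and the same length rule, so it does not check that factor. Recovered lengths equalled an annotated exon length for 13.4% of genes and lay within 25% of the longest transcript for 83.5%. Recovered reads made up 99.8% to 99.9% of library sizes. They were scaled by TMM, written for this work (trims 30% and 5%). Intervals are exact Clopper-Pearson, those of a ratio of ratios normal, and sequenced reads are not independent molecules. Genes needed at least 1 CPM in at least 1 library.

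The members, lists and rules were chosen with earlier results of these data known. The genes named were all members, their paralogs, up to 4 called genes in each direction per list and time by the interval bound nearest to 1, and the 5 nearest patterns to ERF71 and ADH1. No p-value was computed. Alternatives were scaling by upper quartile, median of ratios or total reads, RPKM ratios with and without a pseudocount of 1, no filter or 5 CPM, a threshold of 4-fold or 1.5-fold, intervals lying beyond 2-fold, and the control of the other time. Software was Python 3.11.15 with scipy 1.17.1, pandas 2.3.3, numpy 2.4.6 and matplotlib 3.10.9.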

Additional observations from a re-analysis of the deposited data

Results flagged for a closer look

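The log2 ratio of ADH1 was -1.07 at 2 h and 3.83 at 12 h, in opposite directions. The difference between the times was not tested between conditions, since each group held 1 library. Control 12 h was 7.53-fold lower than control 2 h, and the ratio of the ratios, 30.0 (20.8 to 43.1), carries counting error only.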

How the results depend on the processing

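No paired analysis was possible because each group held 1 library. The log2 ratios of the 9 genes in the 4 comparisons stayed within their counting intervals in 36 of 36 cases under each of 5 alternatives, scaling by upper quartile, by median of ratios or by total reads, and RPKM ratios with or without a pseudocount of 1. RPKM ratios without a pseudocount give the same log2 ratios as scaling by total reads, so they are not a separate check. Each of the scalings shifts all genes of a comparison alike, and they moved the median of all genes by -0.048 to 0.061 (log2). With the control of the other time, 12 of 18 ratios moved beyond their interval. A further 1, ADH1 at 2 h, went from called lower to called higher, with a log2 ratio of 1.84. Some ratios that were not called also changed sign. PCO1 at 12 h went from 0.49 to -0.46 and RAP2.2 at 2 h from 0.01 to -0.18. The number of genes called at 2 h was 4, and 2 at a threshold of 4-fold. It was 3, with ADH1 lost, under log2(RPKM + 1) and with an interval lying beyond 2-fold. At 12 h it was 3, and 5 at 1.5-fold. Between the controls it was 3, 1 at 4-fold or with an interval lying beyond 2-fold, and 4, with PCO1 added, for RPKM ratios, where the fold alone was counted without an interval. Between the narciclasine libraries it was 2, then 5 at 1.5-fold and 0 at 4-fold, and 3, with HRE1 added as lower, under total-read or upper-quartile scaling, RPKM ratios or a filter of 5 CPM. Low reads limit PCO1, PCO2 and ERF71 in control 12 h.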
